A study of Mus musculus with 16 samples.

Results

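Semaphorins, plexins, neuropilins, ephrins and Eph receptors are the ligand and receptor families of contact and short-range axon guidance, and they were read here as 53 genes of the medial prefrontal cortex (mPFC) of the mouse. Membership followed a pattern of gene symbols and used no measured value, although the families were proposed with results of these data known. The symbols were matched to the 19069 known genes that stand among the 26625 rows of a full-length cDNA count table. The 53 genes are 20 semaphorins, 9 plexins, 2 neuropilins, 8 ephrins and 14 Eph receptors. The table came from 16 male C57BL/6 mice aged 8 to 10 weeks in 4 groups. Each mouse received adeno-associated virus in the mPFC carrying EGFP and a short hairpin RNA, which was either a negative control sequence (Ctrl) or one against Kdm7a, a histone demethylase that acts on repressive methyl marks (Kdm7a-shRNA). The hairpin was driven by a U6 promoter and EGFP by a CMV promoter, neither of which restricts expression to a cell type, and the share of cells that the virus reached was not measured here. Place conditioning with saline or with morphine (10 mg/kg, intraperitoneal) then lasted 10 days. The tissue is from day 17, when withdrawal had lasted 7 days. With the control virus there were 3 mice given saline (Ctrl + Saline) and 4 given morphine (Ctrl + Morphine). With the knockdown virus there were 5 given saline (Kdm7a-shRNA + Saline) and 4 given morphine (Kdm7a-shRNA + Morphine). Whether a sample pooled animals is not given in the sources used here, so the spread between samples is the spread between these 16 libraries.

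Semaphorins are secreted (class 3) or membrane-bound proteins that act mostly by repelling growing axons. Class A plexins transduce class 3 semaphorin signals with a neuropilin as the ligand-binding partner, whereas class B, C and D plexins can bind semaphorins directly. Ephrin-A ligands are tethered to the membrane by a lipid anchor and ephrin-B ligands cross it, and both signal to Eph receptor tyrosine kinases on the opposing cell, often with a signal back into the ligand-bearing cell. In the adult cortex these proteins take part in synapse and spine maintenance, and several are made by glial and vascular cells as well as by neurons.

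Library depth ran from 6596991 to 12418112 counts, and the 53 genes held 0.0463% to 0.0619% of the counts of a library. A level of 3 counts, the limit taken here for a gene with 0 counts, corresponded to 0.242 to 0.455 CPM (a gene's count scaled to a fixed library total), and such limits cover counting error only. Kdm7a itself had 9.06 to 9.76 normalized CPM in Ctrl + Saline, 6.18 to 8.87 in Ctrl + Morphine, 4.91 to 6.06 in Kdm7a-shRNA + Saline and 3.001 to 6.27 in Kdm7a-shRNA + Morphine, so that Ctrl and Kdm7a-shRNA mice met only at the edge of their ranges. Its log2 fold change was -0.76 under saline (SE 0.204, edgeR quasi-likelihood adjusted p = 0.0153) and -0.67 under morphine (adjusted p = 0.0506). Normalized CPM is CPM after scaling by trimmed mean of M values (TMM), and all levels below are on that scale. A gene is said to pass where the p of edgeR, adjusted by Benjamini-Hochberg over all 18826 tested genes, was under 0.05 with a change of 1.5-fold or more.

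Markers of other cell types moved with the virus and stand here because several guidance genes are made by those cells. The summed level of 6 microglial markers was 390 to 833 normalized CPM in the Ctrl mice and 709 to 3040 in the Kdm7a-shRNA mice. Of the 6, 5 passed as higher under saline and 3 under morphine, where 16.7% and 7.69% of all tested genes passed in either direction. Oligodendrocyte markers summed to 6876 to 12813 in Ctrl mice and to 8226 to 19570 in Kdm7a-shRNA mice. The 5 endothelial markers summed to 36.4 to 68.9 and to 51.4 to 102 normalized CPM, and 3 of them passed as higher under saline and 1 under morphine. The 5 excitatory neuron markers ran from 995 to 1546 in Ctrl mice and from 694 to 1464 in Kdm7a-shRNA mice, with 0 of 5 passing. Of 6 astrocyte markers, which summed to 6970 to 10976 and to 7800 to 9781, Aldh1l1 and Gfap passed as higher under saline, with Aqp4 added in the average, and 0 passed under morphine. Striatal neuron markers summed to 54.5 to 76.0 in Ctrl + Saline and to 101 to 131 in Ctrl + Morphine, against 53.0 to 137 in the Kdm7a-shRNA mice, with 0 passing, and their part in the morphine comparison under the control virus was not tested. Choroid plexus markers stayed under 8 normalized CPM in every mouse. Of 5 inhibitory neuron markers, 1 passed as higher and 1 as lower under saline. Oligodendrocyte precursors and meninges each had 1 of 5 higher there, and pericytes and smooth muscle had 0 of 5. Under morphine 0 passed in each of these lists. In bulk tissue fewer cells of a type and less RNA per cell cannot be told apart.

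The promoters of 3 of the genes that passed are shown because they bracket the 2 directions seen below: Nrp2 and Plxna2, receptors that were lower after knockdown, and Ephb4, a receptor that was higher. They come from RefSeq on GRCm38.p6, run 5′ to 3′ on the plus strand and have every CG dinucleotide in capitals. Those of Nrp2 and Ephb4 stop before their annotated genes begin. That of Plxna2 stops before the next coding transcript start but lies inside its annotated gene, which begins at 194618218.
Nrp2, chr1:62703067-62703284: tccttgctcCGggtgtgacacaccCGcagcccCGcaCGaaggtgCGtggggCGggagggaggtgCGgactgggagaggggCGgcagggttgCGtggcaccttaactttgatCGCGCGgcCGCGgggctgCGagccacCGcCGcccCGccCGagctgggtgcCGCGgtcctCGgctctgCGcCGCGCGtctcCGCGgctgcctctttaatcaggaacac
Plxna2, chr1:194619579-194619824: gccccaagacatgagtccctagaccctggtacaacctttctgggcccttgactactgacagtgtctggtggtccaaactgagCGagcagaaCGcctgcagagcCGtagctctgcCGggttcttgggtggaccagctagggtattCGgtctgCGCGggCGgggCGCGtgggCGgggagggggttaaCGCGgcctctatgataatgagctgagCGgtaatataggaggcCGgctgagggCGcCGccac
Ephb4, chr5:137349859-137350108: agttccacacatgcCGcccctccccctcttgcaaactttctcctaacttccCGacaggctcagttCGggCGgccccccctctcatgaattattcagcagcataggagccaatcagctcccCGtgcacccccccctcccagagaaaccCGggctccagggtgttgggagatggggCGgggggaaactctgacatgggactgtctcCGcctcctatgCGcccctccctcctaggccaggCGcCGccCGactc

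These runs hold 28 CG dinucleotides in 218 bases for Nrp2, 17 in 246 bases for Plxna2 and 12 in 250 bases for Ephb4. RefSeq windows were matched for 47 of the 53 genes, with 61 windows in all because some genes have several starts. Over the 250 bases before the start, the median was 16 CG dinucleotides for these 61 windows and 6 for all 32851 windows of the genome. GGGCGG, read on both strands, was in 75.4% of the 61 windows and in 32.7% of all windows. TATAAA, also on both strands, was in 1.64% and in 12.37%, and the palindrome TGACGTCA in 1.64% and in 1.55%. The match of letters is a description of the windows, and the assay measured RNA only.

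Of the 53 genes, 47 had counts high enough to be tested. Efna4, Epha1, Epha2, Epha3, Epha8 and Sema3f did not, with mean levels over all mice between 0.147 (Efna4, an ephrin-A ligand) and 0.656 normalized CPM (Sema3f, a secreted ligand of neuropilin-2). Per kilobase of the longest annotated transcript, Sema4d led with 17.2 normalized CPM per kb over all 16 mice, followed by Sema4a with 15.1 and Ephb6 with 11.8. Sema4d and Sema4a are membrane-bound semaphorins, and Ephb6 is an Eph receptor without kinase activity. Nrp1, the neuropilin that pairs with class A plexins for Sema3a, followed at 6.94 normalized CPM per kb, with Sema7a at 4.79, Epha5 at 4.73, Epha4 at 4.15, Plxnb2 at 3.999, Epha7 at 3.96 and Efnb3 at 3.76. From Sema7a to Efnb3 the neighbours in that order were closer than the spread of each gene over mice. The class A plexins, whose transcripts are long, were low per kb, with Plxna2 at 1.22, Plxna1 at 0.996 and Plxna4 at 0.888. Without division by length they had 13.5, 8.997 and 11.4 normalized CPM. The counts are of full-length cDNA reads, and whether they call for division by length was not tested. Without it Sema4d (76.9 normalized CPM), Sema4a (48.4) and Ephb6 (44.3) still led. Epha5 (34.7), Epha7 (26.7), Epha4 (26.3) and Plxnb2 (25.98) then stood above Nrp1 (24.97). From Epha7 to Nrp1 these means were closer than the spread of each gene over mice.

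**Figure D1:**
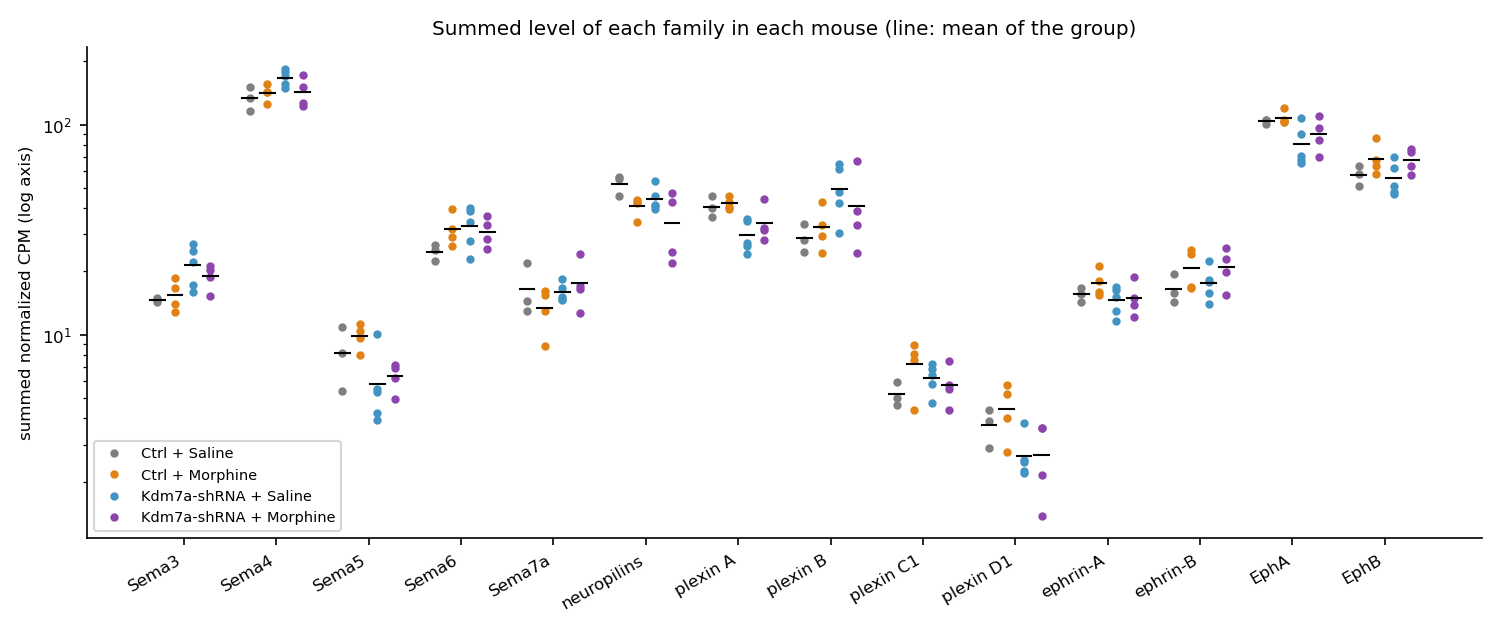
Summed normalized CPM (log axis) of 14 families in each of the 16 mice, with 1 point per mouse, the 4 groups side by side and a line at each group mean. Class 4 semaphorins and EphA receptors sum highest. The plexin A and EphA sums are lower in most Kdm7a-shRNA mice and the plexin B group means are higher, with ranges that overlap Ctrl in every family.

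The family sums set the frame for the single genes. Class A plexins summed to 40.7 ± 4.84 normalized CPM (SD, n = 3) in Ctrl + Saline and 42.2 ± 2.75 (n = 4) in Ctrl + Morphine, against 29.7 ± 5.13 (n = 5) in Kdm7a-shRNA + Saline and 34.0 ± 6.99 (n = 4) in Kdm7a-shRNA + Morphine. Class B plexins went the other way, from 28.9 ± 4.49 and 32.6 ± 7.82 in the Ctrl groups to 49.3 ± 14.2 and 40.8 ± 18.4 in the Kdm7a-shRNA groups. The EphA receptors summed to 104 ± 2.49 and 108 ± 8.15 in the Ctrl groups and to 80.5 ± 18.2 and 90.3 ± 17.2 in the Kdm7a-shRNA groups. The EphB receptors differed little by virus, with 57.5 ± 6.23 and 68.9 ± 12.2 in the Ctrl groups against 55.6 ± 10.2 and 67.8 ± 8.84 in the Kdm7a-shRNA groups. Sums have no test here, and in each of these families the Ctrl and Kdm7a-shRNA ranges overlapped.

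Knockdown under saline asked what loss of Kdm7a did without the drug. Of the 47 genes tested, 4 passed: the receptors Nrp2, Plxna2 and Plxna4 were lower and the ligand Sema3b was higher in Kdm7a-shRNA + Saline. That is 8.51% of the 47 genes, where 16.7% of all 18826 tested genes and 11.98% of the 14162 tested known genes passed in the same comparison, a share below the background. By direction, 1 gene was higher, against 7.42% of all tested genes, and 3 were lower, against 9.31%. Their median log2 fold change was 0.08, and 0.01 over all tested genes. Under morphine the same comparison had 0 of 47 passing in edgeR's quasi-likelihood test, where 7.69% of all tested genes passed, and 7 of the 47 had an unadjusted p under 0.05 against 25.5% of all genes. DESeq2 and edgeR's exact test each called 2 there, Nrp2 and Ephb1, where they called 1697 and 1828 of all 18826 tested genes. The median log2 fold change of the 47 was -0.09, against -0.00 over all tested genes.

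Averaged over both treatments, which uses all 16 mice, knockdown gave 6 of 47 genes passing: Nrp2, Plxna4 and Plxnd1 lower, and Sema3b, Plxnb2 and Ephb4 higher. The share was 12.8%, against 17.6% of all tested genes and 11.3% of the known genes, near the background. The 3 higher genes compare with 7.68% of all tested genes and the 3 lower ones with 9.93%. With the adjusted p alone and no fold limit the count was 12 of 47, or 25.5%, against 27.6% of all tested genes. The 6 added by that rule had smaller folds: Plxna2, Epha5, Efna5 and Epha7 were lower, and Sema4d and Ephb1 were higher. The comparison of saline and the averaged one share their saline mice and are not independent of each other.

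**Figure D2:**
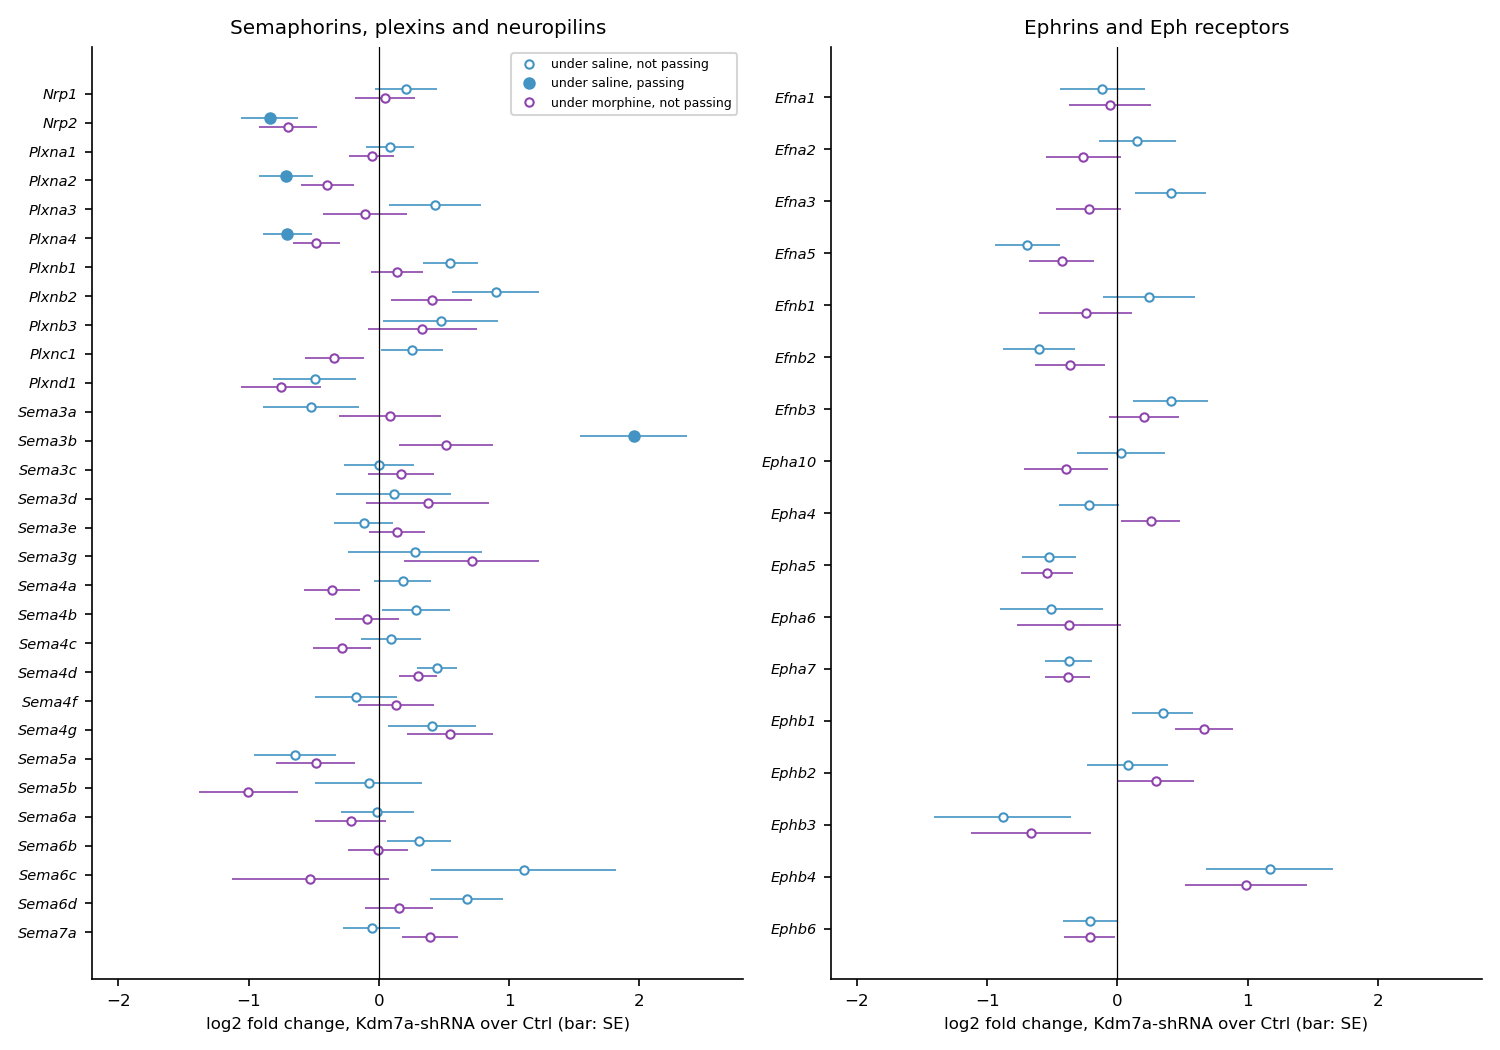
Log2 fold change of Kdm7a-shRNA over Ctrl for the 47 tested genes, under saline and under morphine, with bars of 1 SE on each side and filled points for genes that passed. Sema3b at 1.96 and Nrp2 at -0.84 are the extremes among the filled points, and under morphine no point is filled.

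Neuropilin-2 was the receptor whose call was kept most often. Nrp2 (ENSMUSG00000025969, chromosome 1, 62703285 to 62818695 of GRCm38, plus strand) encodes the neuropilin that binds Sema3f and some vascular endothelial growth factors. It had 29.0, 31.6 and 20.8 normalized CPM in Ctrl + Saline and 19.1, 16.9, 18.5 and 20.8 in Ctrl + Morphine. In Kdm7a-shRNA + Saline it had 11.7, 16.6, 12.42, 15.9 and 19.2, and in Kdm7a-shRNA + Morphine 9.17, 7.30, 13.4 and 16.5. Within each treatment every Kdm7a-shRNA mouse was below every Ctrl mouse, although the highest Kdm7a-shRNA + Saline mouse reached the level of Ctrl + Morphine. Under morphine 4 of the 47 genes had groups that did not overlap, against 13.9% of all tested genes. The log2 fold change was -0.84 under saline (SE 0.219, edgeR adjusted p = 0.0133), -0.70 under morphine (SE 0.222, adjusted p = 0.0557) and -0.77 averaged over treatments (SE 0.156, adjusted p = 0.00151). The averaged call was kept in each of the 16 fits that left out 1 mouse, with log2 fold changes from -0.87 to -0.68. The saline call was lost without Ctrl + Saline replicate 2 (edgeR adjusted p = 0.0744).

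The other neuropilin did not follow it. Nrp1 had 26.0, 25.03 and 24.7 normalized CPM in Ctrl + Saline and 17.5 to 24.4 in Ctrl + Morphine, against 24.4 to 41.4 in Kdm7a-shRNA + Saline and 14.7 to 33.7 in Kdm7a-shRNA + Morphine, with log2 fold changes of 0.21 and 0.05 under saline and morphine. The ratio of Nrp2 to Nrp1 counts within a mouse, which needs no scaling between libraries, was 0.760 to 1.26 in the 7 Ctrl mice and 0.300 to 0.715 in the 9 Kdm7a-shRNA mice, with no overlap. This ratio was chosen after its values were seen and has no test. Ratios of Plxnb2 and of Plxnb1 to Plxna1, and of Sema3b to Sema3c, were also taken and overlapped. The lowest Nrp2 to Nrp1 ratio of each Kdm7a-shRNA group, 0.300 under saline and 0.397 under morphine, was in replicate 3. Those mice had the highest Nrp1 (41.4 and 33.7) and the highest microglial sums (3040 and 2862) of their groups. The part of microglial RNA in the ratio was not tested.

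The class A plexins split in the same manner. Plxna4 (ENSMUSG00000029765, chromosome 6, 32144268 to 32588192, minus strand) encodes a receptor for class 3 semaphorins with Nrp1 and for class 6 semaphorins directly. It had 12.9, 15.6 and 15.9 normalized CPM in Ctrl + Saline and 13.4, 14.8, 12.39 and 13.5 in Ctrl + Morphine, against 9.75, 7.82, 8.04, 12.3 and 7.52 in Kdm7a-shRNA + Saline and 11.8, 8.02, 7.72 and 11.5 in Kdm7a-shRNA + Morphine. It was the only one of the 47 whose 7 Ctrl mice all lay above its 9 Kdm7a-shRNA mice, by 12.39 against 12.35 at the border, where 4.37% of all tested genes were separated in this way in either direction. Its log2 fold change was -0.70 under saline (SE 0.185, edgeR adjusted p = 0.0142), -0.48 under morphine (SE 0.183, adjusted p = 0.106) and -0.59 averaged (SE 0.130, adjusted p = 0.00277). The averaged fold stood just past the limit of 1.5, at 1.51-fold lower, and with 1 mouse left out it stayed past the limit in 8 of 16 fits, with edgeR adjusted p of at most 0.0102 in all 16. The saline call held in 6 of 8 such fits and was lost without Ctrl + Saline replicate 2 or 3 (adjusted p up to 0.0644).

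Plxna2 (ENSMUSG00000026640, chromosome 1, 194618218 to 194816869, plus strand) encodes a receptor for class 3 semaphorins and for Sema6a. It had 13.1, 21.0 and 15.1 normalized CPM in Ctrl + Saline and 17.04, 17.5, 17.6 and 14.1 in Ctrl + Morphine. Knockdown mice had 11.0, 8.39, 7.33, 13.4 and 10.1 under saline and 10.6, 12.44, 10.5 and 16.9 under morphine. The highest Kdm7a-shRNA mouse of each treatment overlapped Ctrl. Its log2 fold change was -0.71 under saline (SE 0.207, edgeR adjusted p = 0.0226), -0.40 under morphine (adjusted p = 0.231) and -0.55 averaged (adjusted p = 0.00861), the last being 1.47-fold and so short of the limit. The saline call held in 4 of the 8 fits that left out 1 mouse. It was lost without Ctrl + Saline replicate 2 (-0.48, edgeR adjusted p = 0.176), and also without Ctrl + Saline replicate 3 or Kdm7a-shRNA + Saline replicate 2 or 3, each with an adjusted p above 0.05.

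Plxna1 and Plxna3, the other class A plexins, did not pass. Plxna1 averaged 8.01 and 9.86 normalized CPM in the Ctrl groups and 8.49 and 9.51 in the Kdm7a-shRNA groups. Plxna3 averaged 1.51 and 2.29 against 2.03 and 2.17. The ratio of Plxna4 to Plxna1 counts was 1.31 to 2 in Ctrl mice and 0.833 to 1.62 in Kdm7a-shRNA mice, and that of Plxna2 to Plxna1 was 1.45 to 2.70 and 0.941 to 1.75, with overlap in both.

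Excitatory neuron markers were high together with some of these receptors in a pair of libraries, but not for Nrp2 in both. Kdm7a-shRNA + Saline replicate 4 and Kdm7a-shRNA + Morphine replicate 4 had the highest excitatory neuron marker sums of their groups, 1204 and 1464 normalized CPM, and the lowest microglial sums, 1108 and 709. They also had the highest Plxna2 of their groups, at 13.4 and 16.9, and the highest Epha5, at 40.7 and 39.8. Plxna4 was highest in the former, at 12.3, and next to highest in the latter, at 11.5. Nrp2 was highest in the latter, at 16.5, but had 15.9 in the former. The highest Nrp2 of Kdm7a-shRNA + Saline, 19.2, was in replicate 5, which had the lowest excitatory sum, 694. The Ctrl groups differed. Replicate 2 had the highest excitatory sum in both, 1438 under saline and 1546 under morphine. Its Epha5 was the lowest of Ctrl + Saline (39.9) and the highest of Ctrl + Morphine (47.4). The part of cell makeup in the receptor differences was not tested.

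**Figure D3:**
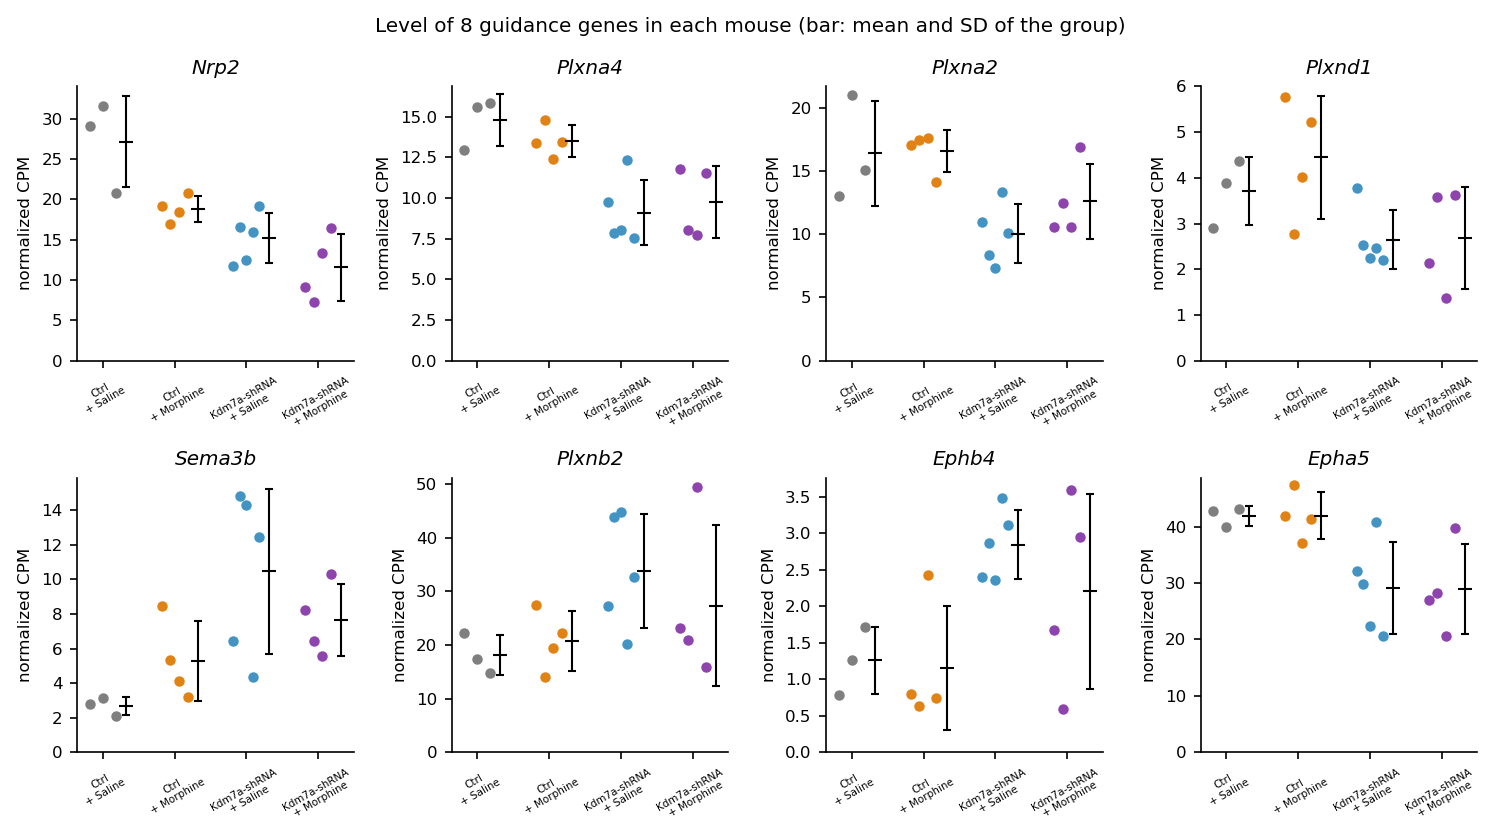
Normalized CPM of 8 genes in each mouse, by group, on axes that start at 0, with the mean and SD of the group beside the points. Nrp2, Plxna4, Plxna2, Plxnd1 and Epha5 sit lower in most Kdm7a-shRNA mice. Sema3b, Plxnb2 and Ephb4 have higher means in the Kdm7a-shRNA groups, but many of those mice lie within the Ctrl range. Kdm7a-shRNA mice reach the Ctrl range for all but Plxna4.

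Plxnd1, a receptor best known for Sema3e signals in vessels and in thalamic and striatal wiring, was sparse. It had 2.90, 3.90 and 4.36 normalized CPM in Ctrl + Saline and 5.78, 2.77, 4.01 and 5.23 in Ctrl + Morphine, against 3.78, 2.53, 2.25, 2.47 and 2.21 and then 2.14, 3.59, 1.37 and 3.62 in the Kdm7a-shRNA groups. Ctrl and Kdm7a-shRNA mice overlapped in both treatments. The averaged log2 fold change was -0.62 (SE 0.222, edgeR adjusted p = 0.0443), and the call held in 5 of the 16 fits that left out 1 mouse, with adjusted p up to 0.107. Plxnc1, the receptor of Sema7a, had group means from 5.19 to 7.25 normalized CPM and did not pass in any comparison.

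Of the class B plexins, Plxnb2 passed, in the averaged comparison alone. Plxnb2 (chromosome 15, 89155549 to 89180788, minus strand), a receptor for class 4 semaphorins, had 22.2, 17.4 and 14.8 normalized CPM in Ctrl + Saline and 27.4, 14.1, 19.4 and 22.2 in Ctrl + Morphine. It had 27.3, 43.8, 44.8, 20.2 and 32.7 in Kdm7a-shRNA + Saline and 23.1, 20.9, 49.4 and 15.9 in Kdm7a-shRNA + Morphine. The groups overlapped in both treatments. The averaged log2 fold change was 0.65 (SE 0.228, edgeR adjusted p = 0.0403), with 0.90 under saline (adjusted p = 0.0646) and 0.41 under morphine (SE 0.312).

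The averaged call of Plxnb2 held in 7 of the 16 fits that left out 1 mouse, with edgeR adjusted p up to 0.109, and in 5 of 9 other alternatives. Leaving out Kdm7a-shRNA + Morphine replicate 3 brought the averaged value of Plxnb2 to 0.42 (edgeR adjusted p = 0.109) and turned the value under morphine to -0.058. That mouse had the highest microglial sum of its group, 2862 normalized CPM. Kdm7a-shRNA + Saline replicates 2 and 3, the others above 40 normalized CPM for Plxnb2, had microglial sums of 2101 and 3040. Replicate 5 of that group had a higher microglial sum than replicate 2, 2486, and less Plxnb2, 32.7 normalized CPM. The Ctrl groups differed: the highest microglial sum of Ctrl + Saline (833, replicate 3) came with its lowest Plxnb2, 14.8. That of Ctrl + Morphine (710, replicate 1) came with its highest, 27.4. The part of microglial RNA in the Plxnb2 difference was not tested. Plxnb1 and Plxnb3, its relatives, had averaged log2 fold changes of 0.34 and 0.41 and did not pass.

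Sema3b (ENSMUSG00000057969, chromosome 9, 107597674 to 107609229, minus strand), a secreted ligand that signals through neuropilins and class A plexins, had the largest fold among the genes that passed. It had 2.77, 3.12 and 2.12 normalized CPM in Ctrl + Saline and 8.47, 5.32, 4.13 and 3.203 in Ctrl + Morphine. In Kdm7a-shRNA + Saline it had 6.42, 14.8, 14.3, 4.38 and 12.44, all above Ctrl + Saline, and in Kdm7a-shRNA + Morphine it had 8.26, 6.46, 5.57 and 10.3, which overlapped Ctrl + Morphine. The log2 fold change was 1.96 under saline (SE 0.412, edgeR adjusted p = 0.00407, 3.88-fold higher), 0.51 under morphine (SE 0.361, adjusted p = 0.4) and 1.24 averaged (SE 0.273, adjusted p = 0.00277). Both calls were kept in every fit that left out 1 mouse.

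The difference between both knockdown effects on Sema3b was itself tested as an interaction, and its log2 value of -1.44 (SE 0.543) did not pass (edgeR adjusted p = 0.32). Within Kdm7a-shRNA + Saline the 3 mice above 12 normalized CPM for Sema3b had oligodendrocyte marker sums of 17927, 17501 and 17063, and the other 2 had sums of 8226 and 8806. The same 3 mice also had the highest microglial sums of the group, 2101, 3040 and 2486, against 1393 and 1108. Their excitatory neuron sums were the lowest, 710, 759 and 694, against 977 and 1204. These libraries thus differed in several cell types at once. In Kdm7a-shRNA + Morphine the mouse highest for Sema3b had the lowest oligodendrocyte sum of its group, 8722, and the lowest microglial sum, 709. The part of cell makeup in the Sema3b result was not tested.

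The other class 3 ligands did not pass. Sema3a, the classic repellent that acts through Nrp1, averaged 2.74 ± 0.751 normalized CPM in Ctrl + Saline, 1.496 ± 0.374 in Ctrl + Morphine, 1.90 ± 0.809 in Kdm7a-shRNA + Saline and 1.62 ± 0.665 in Kdm7a-shRNA + Morphine. Sema3e, the ligand of Plxnd1, lay between 2.99 and 6.27 in all mice, and Sema3c between 1.39 and 3.04. Sema3d and Sema3g had means of 0.836 and 1.21 over all mice.

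Among the membrane-bound semaphorins Sema4d, a ligand of class B plexins that mature oligodendrocytes make, was the most abundant. It had 76.5, 73.1 and 56.2 normalized CPM in Ctrl + Saline, 68.5, 59.3, 54.3 and 67.8 in Ctrl + Morphine, 88.1, 96.5, 110, 78.8 and 94.1 in Kdm7a-shRNA + Saline and 63.3, 66.9, 82.3 and 94.8 in Kdm7a-shRNA + Morphine. All 5 Kdm7a-shRNA + Saline mice were above the 3 Ctrl + Saline mice, as 9 of the 47 genes and 23.7% of all tested genes were separated in that comparison in either direction. Its adjusted p was 0.0463 under saline and 0.0138 averaged (edgeR), but its folds of 1.36 and 1.29 were under the limit. Sema4a averaged 43.2 to 56.3 normalized CPM by group, Sema6d 10.2 to 16.2 and Sema7a 13.4 to 17.6, with no call in any comparison.

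Sema5a, a transmembrane guidance cue, had an averaged log2 fold change of -0.57 (SE 0.219, edgeR adjusted p = 0.0633) and had 8.08 normalized CPM in Kdm7a-shRNA + Saline replicate 4 against 2.87 to 3.31 in the rest of that group. Sema6c was at 0 counts in Ctrl + Saline replicate 3 and at 0.0996 normalized CPM in Ctrl + Morphine replicate 1, while the other 14 mice had 1.17 to 5.43, and it did not pass in any comparison. Sema6a, Sema6b, Sema5b, Sema4b, Sema4c, Sema4f and Sema4g did not pass in any comparison.

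Among the Eph receptors, only Ephb4 passed, in the averaged comparison. Ephb4 (ENSMUSG00000029710, chromosome 5, 137350109 to 137378669, plus strand) is the venous endothelial receptor for ephrin-B2. It had 0.791, 1.27 and 1.72 normalized CPM in Ctrl + Saline and 0.797, 0.639, 2.43 and 0.747 in Ctrl + Morphine, against 2.41, 2.87, 2.37, 3.48 and 3.11 in Kdm7a-shRNA + Saline and 1.68, 0.598, 3.60 and 2.95 in Kdm7a-shRNA + Morphine. The groups were apart under saline and overlapped under morphine. The averaged log2 fold change was 1.08 (SE 0.340, edgeR adjusted p = 0.0246), and it fell short of the call without any of 4 mice, with adjusted p up to 0.0715. The annotated Zan gene overlaps Ephb4 on the opposite strand, and whether counting used strand is not given in the sources used here. The endothelial sums given above reached higher in the same groups, but mice within groups differed. Kdm7a-shRNA + Saline replicate 4 had the highest Ephb4 of its group, 3.48, and the lowest endothelial sum, 66.3. Kdm7a-shRNA + Morphine replicate 4 had 2.95 with the lowest sum of its group, 51.4. Replicate 3 of that group (3.60, sum 102) and Ctrl + Morphine replicate 3 (2.43, sum 68.9) were the highest of their groups for both. The part of endothelial RNA was not tested.

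Epha5 and Epha7, receptors for ephrin-A ligands that forebrain neurons make, were lower by less than the limit. Epha5 had 42.7, 39.9 and 43.1 normalized CPM in Ctrl + Saline and 41.8, 47.4, 37.2 and 41.4 in Ctrl + Morphine. It had 32.1, 29.8, 22.3, 40.7 and 20.6 in Kdm7a-shRNA + Saline and 26.9, 28.2, 20.7 and 39.8 in Kdm7a-shRNA + Morphine, so that 1 mouse of each Kdm7a-shRNA group reached the Ctrl level. Its averaged log2 fold change was -0.53 (SE 0.144, edgeR adjusted p = 0.0101). Epha7, named after its values were seen, had -0.38 (SE 0.125, edgeR adjusted p = 0.0311), and all 4 Kdm7a-shRNA + Morphine mice, at 22.2 to 28.0, were at or below the lowest of the Ctrl + Morphine mice, at 28.0 to 35.3.

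The abundant Ephb6 had 36.7 to 48.5 normalized CPM in Ctrl + Saline and 25.8 to 50.7 in Kdm7a-shRNA + Saline, and did not pass. Ephb1, named after its values were seen, was higher, with group means of 9.45 and 8.46 in the Ctrl groups and 12.05 and 13.4 in the Kdm7a-shRNA groups and an averaged log2 fold change of 0.50 (SE 0.162, edgeR adjusted p = 0.0268). Epha4, Epha6, Epha10, Ephb2 and Ephb3 did not pass in any comparison.

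No ephrin passed. Efna5, the ephrin-A ligand that Epha5 and Epha7 bind and also named after its values were seen, had group means of 6.05 and 5.65 normalized CPM in the Ctrl groups and 3.74 and 4.24 in the Kdm7a-shRNA groups, with an averaged log2 fold change of -0.56 (SE 0.176, edgeR adjusted p = 0.0244), 1.47-fold lower. Efnb3, the most abundant ephrin at 11.96 normalized CPM over all mice, ranged from 6.99 to 19.5 and Efnb2, the ligand of Ephb4, from 2.91 to 8.84. The averaged log2 fold change of Efnb2 was -0.48 (SE 0.193, edgeR adjusted p = 0.0721).

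Transcript length moved with the knockdown contrast over the whole table and touches the long receptor genes. Among known genes the median log2 fold change under saline was 0.20 for transcripts up to 1 kb and -0.16 for those over 8 kb, and under morphine it was 0.10 and -0.07. Plxna4 and Plxna2 have longest transcripts of 12877 and 11040 bases, Nrp2 of 6723 and Sema3b of 3410. With offsets that removed each mouse's length trend, Plxna4 and Plxna2 each had -0.57 under saline (edgeR adjusted p = 0.0317 and 0.0483). Both fell short of the fold limit and so did not pass, whereas Nrp2 (-0.76) and Sema3b still did. The saline count was 2 in place of 4, with 1217 known genes passing, against 1696 in the main fit. Averaged, Plxna4 had -0.48 (edgeR adjusted p = 0.00800) and Plxna2 -0.44 (adjusted p = 0.0223). The averaged count was 5, namely Nrp2 and Efna5 lower and Sema3b, Plxnb2 and Ephb4 higher. Known genes passing then numbered 1352, against 1598 in the main fit.

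**Figure D4:**
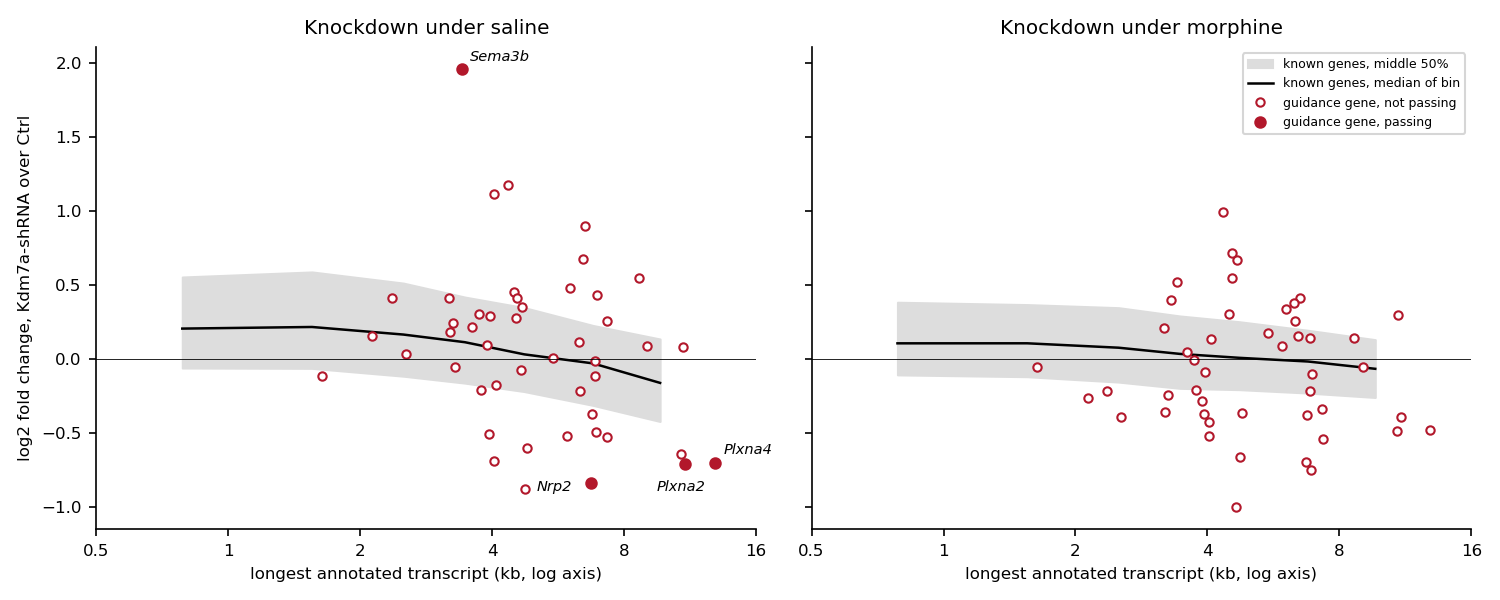
Log2 fold change of Kdm7a-shRNA over Ctrl against the length of the longest annotated transcript (log axis), under saline and under morphine, with the median and middle 50% of known genes in 7 length bins and 1 point per guidance gene. The median of known genes falls from 0.20 to -0.16 under saline, and Plxna2 and Plxna4 sit at the long end, below the middle 50%.

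Morphine itself gave no call in these families. Under the control virus 0 of 47 genes passed in edgeR, where 0% of all tested genes passed, and 5 of the 47 had an unadjusted p under 0.05 against 11.7% of all tested genes. The smallest p was that of Efna3, an ephrin-A ligand, which had 4.22, 4.29 and 3.44 normalized CPM in Ctrl + Saline and 6.18, 9.26, 4.25 and 6.19 in Ctrl + Morphine, with a log2 fold change of 0.70 (SE 0.280, edgeR adjusted p = 0.328). Nrp2 followed with -0.53 (SE 0.230, edgeR adjusted p = 0.373) and Sema3b with 0.98 (SE 0.429, adjusted p = 0.377). DESeq2 and edgeR's exact test called 0 of the 47 here too, where they called 190 and 162 of all tested genes. For Nrp2 the 95% interval of -1.03 to -0.03 holds the value of -0.84 seen with knockdown under saline.

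Under knockdown, morphine again had 0 of 47 passing, with 0.00531% of all tested genes passing. At an unadjusted p under 0.05 the count was also 0, against 7.02% of all tested genes. The smallest p values were those of Sema4d (log2 fold change -0.28, SE 0.139), Efnb1 (-0.62, SE 0.335) and Ephb6 (0.35, SE 0.188), with edgeR adjusted p of 0.725, 0.742 and 0.742. Efnb1, an ephrin-B ligand, had 2.87, 3.10, 1.77, 1.35 and 1.70 normalized CPM in Kdm7a-shRNA + Saline and 1.22, 1.44, 1.2005 and 1.74 in Kdm7a-shRNA + Morphine, and the groups overlapped.

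The interaction, which asks whether the knockdown effect differed between treatments, had 0 of 47 passing against 0.085% of all tested genes, and 1 of 47 at an unadjusted p under 0.05 against 10.7%. After Sema3b, given above, came Plxnc1 at -0.60 (SE 0.326, edgeR adjusted p = 0.539) and Sema4a at -0.54 (SE 0.308, adjusted p = 0.565). The interaction terms of Nrp2, Plxna2 and Plxna4 did not pass either, and their values under both treatments had the same sign, so a difference between treatments was not shown.

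Proteins that work with these receptors inside the cell were read from a list of 62 genes, of which 61 were tested, chosen, like the marker lists, with results of these data known. Under saline 5 of 61 passed, or 8.20% against 16.7% of all tested genes. Rhoa, the GTPase behind actomyosin contraction, rose with a log2 fold change of 0.74, Rap1b, a GTPase switched off by plexins, rose by 0.68, Limk1, the kinase of cofilin, rose by 0.75, and Dok1, an adaptor, rose by 1.67. Sipa1l1, a postsynaptic regulator of Rap, was lower at -0.73. The edgeR adjusted p of these 5 lay between 0.0116 and 0.0348.

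Under morphine 1 of 61 passed, or 1.64% against 7.69% of all tested genes. It was Nrcam, an adhesion molecule that joins neuropilin-2 in semaphorin receptors. Nrcam had 293 ± 22.4 normalized CPM in Ctrl + Saline and 354 ± 20.7 in Ctrl + Morphine, against 221 ± 29.3 in Kdm7a-shRNA + Saline and 227 ± 48.5 in Kdm7a-shRNA + Morphine, and its log2 fold change under morphine was -0.64 (SE 0.137, edgeR adjusted p = 0.00983). Averaged over treatments 5 of 61 passed, or 8.20% against 17.6% of all tested genes. Mical1 (0.65), which oxidizes actin below plexins, Rras (0.64), a plexin substrate, Fes (1.26), a tyrosine kinase, and Dok1 (1.39) were higher, and Grip1 (-0.65), a scaffold bound by ephrin-B, was lower, with adjusted p from 0.00847 to 0.0460. In each Kdm7a-shRNA group Fes, Dok1 and Mical1 were highest in the mouse with the highest microglial sum. They had 18.6, 9.93 and 18.8 normalized CPM in Kdm7a-shRNA + Saline replicate 3 and 21.1, 9.26 and 27.1 in Kdm7a-shRNA + Morphine replicate 3. The Ctrl groups differed. Dok1 (1.72) and Mical1 (7.80) were lowest in Ctrl + Saline replicate 3, which had the highest microglial sum there, 833. In Ctrl + Morphine replicate 1, with the highest sum of its group (710), Dok1 (3.89) and Mical1 (12.6) were highest and Fes (2.59) lowest. The part of microglial RNA was not tested. In both morphine comparisons and in the interaction 0 of 61 passed in edgeR.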

How the data were processed

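Full-length cDNA of the mPFC of 16 mice was sequenced on a Nanopore device. The authors removed reads of low quality, short reads and ribosomal reads, mapped full-length reads to mm10 with minimap2, merged transcripts with Pinfish and cDNA Cupcake, and deposited raw counts per gene for each mouse. They also deposited CPM values, the same counts scaled to each library's total, which were not tested here. Whether counting used strand, and the annotation version, are not given in the sources used here. The submitters' processing notes name edgeR 3.8.6.

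Counts were fitted in edgeR 4.0.16 (R 4.3.3) with TMM scaling, filterByExpr, 1 mean per group over all 16 libraries and quasi-likelihood tests, which left 18826 genes. Contrasts were knockdown within each treatment, morphine within each virus, the knockdown average and the interaction. The fit was tested on simulated data. DESeq2 1.42.0, edgeR's exact test, other scalings and filters, length offsets, a replicate block and leaving out each mouse were alternatives. Gene positions are from GENCODE on GRCm38.

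The gene families, the named genes and all lists were chosen with earlier results of these data known. Genes were named where they passed in any contrast, had one of the 5 smallest p for the knockdown average or of the 3 smallest p in a morphine contrast or the interaction, or were the most abundant of their family. All others named with values, such as Plxna1, Plxna3, Plxnb1, Plxnb3, Sema3a, Sema3c, Sema3e, Sema6c, Efnb2, Efna5, Epha7 and Ephb1, lie outside that rule and were chosen after their values were seen. Replicate numbers were checked for pairing: same-numbered mice are different animals, and 7 of 21 pairs of same-numbered libraries had deviations correlated above 0.1 (range -0.130 to 0.471). In Ctrl + Saline against Ctrl + Morphine all 3 pairs did (0.177, 0.235 and 0.138).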

Additional observations from a re-analysis of the deposited data

Results flagged for a closer look

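Within groups of 4 or 5 mice, 10 of 141 tests placed a mouse apart from the rest of its group by Dixon's criterion, where chance gives about 1 in 20. In Kdm7a-shRNA + Saline, Sema6a had 15.5 normalized CPM in replicate 2 (others 7.41 to 9.52), Sema5a had 8.08 in replicate 4 (others 2.87 to 3.31) and Nrp1 had 41.4 in replicate 3 (others 24.4 to 28.1). In replicate 1 of that group, Plxna1 had 11.7 (others 7.45 to 7.93) and Plxnd1 had 3.78 (others 2.21 to 2.53).

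In Kdm7a-shRNA + Morphine, Plxna1 had 12.1 normalized CPM in replicate 4 (others 8.41 to 8.83) and Efna1 had 4.29 in replicate 3 (others 2.14 to 2.39). In Ctrl + Morphine, Plxna2 had 14.1 in replicate 4 (others 17.04 to 17.6), Epha7 had 28.0 in replicate 2 (others 34.5 to 35.3) and Ephb4 had 2.43 in replicate 3 (others 0.639 to 0.797).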

How the results depend on the processing

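For knockdown under morphine, 0 of the 47 genes passed. With scaling by library size only 1 passed (Nrp2), as with TMM on known genes only (1) and with the replicate block (1), and DESeq2 and edgeR's exact test each gave 2 (Ephb1 and Nrp2). Leaving out a mouse gave 0 to 2. Over all genes the main fit gave 1448 there. Library size only gave 1639, TMM on known genes 1471, the block 1456, DESeq2 1697 and the exact test 1828. Leaving out a mouse gave 568 to 2065 over all genes. For knockdown under saline the count was 4, length offsets gave 2, and leaving out a mouse gave 1 (without Ctrl + Saline replicate 2) to 9 (without Kdm7a-shRNA + Saline replicate 4), with 2 without Ctrl + Saline replicate 3. For the average the count was 6, library size only gave 10 (2 higher, 8 lower), adjusted p alone gave 12, and leaving out a mouse gave 2 (without Ctrl + Saline replicate 2, or Kdm7a-shRNA + Morphine replicate 3) to 10 (without Kdm7a-shRNA + Morphine replicate 4), with 3 without replicate 2, 3 or 5 of Kdm7a-shRNA + Saline. Over all genes knockdown under saline gave 3150. It gave 2083 without Ctrl + Saline replicate 2, 1426 without replicate 3 and 3730 without Kdm7a-shRNA + Saline replicate 4. The average gave 3316, with 3440 by library size only (30.6% of them higher) and 5188 by adjusted p alone. Leaving out a mouse gave 2753 (Kdm7a-shRNA + Morphine replicate 3) to 3738 (replicate 4). Morphine contrasts and the interaction gave 0 of the 47 under every alternative run, with up to 230, 26 and 266 over all genes. Scaling by library size only shifted the all-gene median of the knockdown contrast by -0.13 (saline) and -0.11 (morphine), and the share of higher genes among all genes passing under saline from 44.3% to 29.3%. The same scaling put the summed EphA and class 3 semaphorin levels of Ctrl + Saline at 109 and 15.3 normalized CPM, from 104 and 14.6. For Plxnb2 under morphine, with a log2 fold change of 0.41, leaving out a mouse gave -0.058 (without Kdm7a-shRNA + Morphine replicate 3) to 0.59 (without replicate 4 of that group). The causes were not tested.

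The replicate block gave 1 of the 47 genes for knockdown under morphine (Nrp2), 5 under saline (Plxnb1 added) and 7 averaged, and 0 elsewhere. Over all genes it gave 1456, 3199 and 3345 in these comparisons, against 1448, 3150 and 3316 in the main fit. Same-numbered mice are different animals, so the block stands for no known pairing. In Ctrl + Saline against Ctrl + Morphine, with correlations of 0.177, 0.235 and 0.138, the block changed no call. The highest correlations, 0.471 and 0.417, were in Kdm7a-shRNA + Saline against Kdm7a-shRNA + Morphine, where it changed no call either.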
